A study of Mus musculus with 15 samples.

Results

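The ephrins Efnb1, Efnb2, Efnb3, Efna1 and Efna5 and the Eph receptors Epha3, Epha4, Epha5, Ephb1 and Ephb2 are described here in RNA-seq of whole mouse pituitary glands. These 10 genes were taken by symbol from the 55523 rows of the gene count table, and where a symbol had several rows the row with the most summed counts was used, which applied to 1 gene (Epha5, whose second row held 25 counts over all libraries). They were chosen by their counts in the 4 groups of these same libraries, so their levels and genotype differences are given as a description, and the p-values say only where a gene stood in a fit of the whole table. The 22 ephrin and Eph genes of the mouse include 12 others, which are given for comparison.

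All mice carried a CRISPR/Cas9 deletion of the pituitary enhancer (PE) in intron 6 of Nr5a1, which encodes a nuclear receptor (Ad4BP, also SF-1) that gonadotropes use to make gonadotropins. The controls were heterozygous for it (PE+/−) and the mutants homozygous (PE−/−). Wild-type glands were not analysed here, so every genotype comparison is between 1 and 2 copies of the deletion. Both male groups and the PE+/− females had 4 libraries each and the PE−/− females had 3, and whether each library was 1 mouse or a pool is not given in the sources used here, so the p-values measure the spread between these libraries. The deletion is present in every cell of these mice, PE−/− mice of both sexes were infertile, and the age of the sequenced mice is not given in the sources used here.

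Ephrins are ligands held in the cell membrane, so they meet their receptors only where cells touch. The ephrin-A ligands are anchored by a lipid, whereas the ephrin-B ligands cross the membrane and carry a cytoplasmic tail whose end binds PDZ proteins. Their receptors are tyrosine kinases, and binding sends a signal into both cells, forward through the receptor and in reverse through the ephrin. The system is best known for axon guidance and for keeping cell populations apart, and in endocrine tissue contact between ephrin-A5 and EPHA5 on neighbouring pancreatic beta cells is known to tune insulin release.

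The coding ends of the 3 ephrin-B ligands are shown because they belong to the part of the protein that sends the reverse signal. Identity was computed for these ends only, and the rest of the genes was compared by shared runs of bases. The stretches below are the last 75 coding bases, stop codon included, of the longest coding transcript of each gene in GENCODE M21 (build GRCm38), all in exon 5 of 5, with the 4 codons before the stop codon in capitals. Efnb1 lies at chrX:99147453-99147527 (plus strand), Efnb2 at chr8:8620588-8620662 (minus strand) and Efnb3 at chr11:69555860-69555934 (minus strand).
Efnb1: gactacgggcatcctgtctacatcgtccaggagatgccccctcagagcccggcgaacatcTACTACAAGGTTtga
Efnb2: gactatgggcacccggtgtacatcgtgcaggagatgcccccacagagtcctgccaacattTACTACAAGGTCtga
Efnb3: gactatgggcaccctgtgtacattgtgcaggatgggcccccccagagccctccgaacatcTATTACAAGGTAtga
Efnb1 and Efnb2 shared 64 of these 75 bases (85.3%), Efnb1 and Efnb3 62 (82.7%) and Efnb2 and Efnb3 63 (84.0%). Among the 231 pairs of family genes the longest run of identical bases in the longest coding transcripts was 38 (Ephb1 and Ephb3). The longest run was 22 bases between Efnb1 and Efnb3, 18 between Efnb2 and Efnb3 and 17 between Efnb1 and Efnb2. Epha3 shared at most 31 (with Epha2). Of the genes annotated over the members, those on the same strand as Efnb2 held at most 84 counts in a library, Hmgn2-ps1, opposite to Epha5, at most 171 and those over Ephb1 at most 21. Whether the deposited values used strand is not given in the sources used here, so reads of these genes cannot be told apart from those of the members.

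Each library held from 12982794 to 30238443 estimated counts, of which about 4 stood for 1 sequenced fragment, so that 12 counts (3 fragments) were taken as the floor of detection. Levels are given in CPM, the count of a gene scaled to a common library size, after TMM factors that correct for a few genes taking up much of a library. The targeted gene was as the labels state: Nr5a1 averaged 50.2 ± 20.5 CPM (SD, n = 4) in control males against 0.347 ± 0.303 CPM (n = 4) in PE−/− males, and 38.7 ± 5.13 CPM (n = 4) against 0.723 ± 0.151 CPM (n = 3) in the females. In whole glands fewer cells of a type and less RNA per cell cannot be told apart, here and in all that follows. The hormone genes Gh, Prl, Pomc and Tshb were detected in every library, while the posterior lobe markers Nkx2-1 and Rax were at the floor in every female library and in 5 of the 8 male libraries each. Of the other posterior lobe markers, Slc1a3 was above the floor in every library, with group means of 20.6 to 50.3 CPM. Col25a1 and Scn7a averaged 24.05 and 34.9 CPM in PE+/− males and 10.5 and 1.59 CPM in PE+/− females. The list summed to 21.3 to 268 CPM in PE+/− and 33.8 to 163 CPM in PE−/− males. In females these sums were 21.6 to 41.3 and 28.6 to 36.8 CPM. The part of posterior lobe tissue in the differences between the sexes was not tested.

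Set side by side per length and averaged over all libraries, the 5 ligands described here came before every receptor of the family, an order that did not hold in each group. Per kilobase of exons, Efna5 averaged 41.9 CPM per kb over the 15 libraries, Efna1 29.4, Efnb1 9.53, Efnb3 3.12 and Efnb2 2.87 CPM per kb, the 5 highest of the 22 family genes. The first receptor was Ephb6 (2.13 CPM per kb), a family member without kinase activity, and Epha3 came ninth with 1.23 CPM per kb. Ephb2 (0.512), Epha4 (0.313), Epha5 (0.309) and Ephb1 (0.216 CPM per kb) ranked between 13 and 17. Neighbours in this order overlapped over the libraries, except that every value of Efna1 lay above every value of Efnb1 (2.19 to 14.9 CPM per kb): Efna5 ranged from 34.3 to 52.9 CPM per kb and Efna1 from 20.8 to 39.7, and Epha4, Epha5 and Ephb1 could not be ordered (0.0135 to 0.621, 0.139 to 0.491 and 0.0922 to 0.426 CPM per kb). The rank of Efnb3 depended on the genotype, since it ranged from 0.460 to 1.26 CPM per kb in the 8 control libraries and from 4.54 to 7.27 CPM per kb in the 7 PE−/− libraries. Its mean of 0.831 CPM per kb in PE+/− males and 0.765 in PE+/− females was below those of the receptors Ephb6, Epha7 and Epha10 (1.67 to 2.41 CPM per kb in the same groups). Efnb2 in PE+/− females (2.22 CPM per kb) was also below Epha7 (2.41 CPM per kb).

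**Figure D1:**
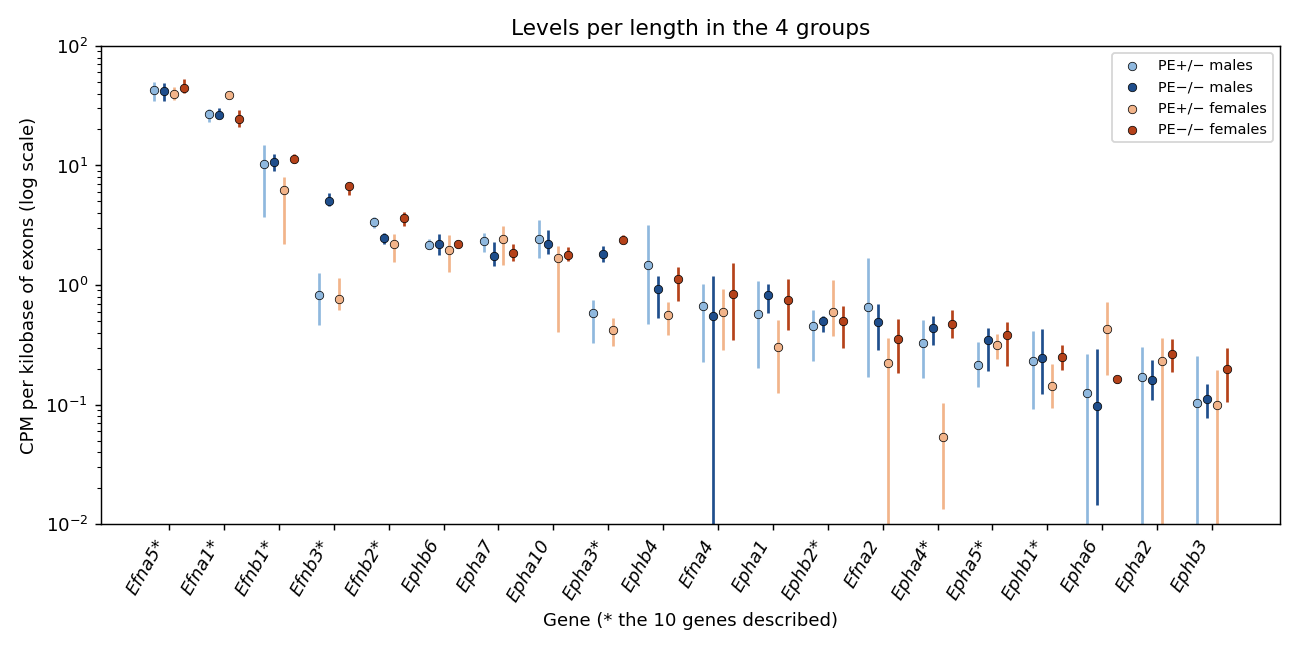
Level of the 20 family genes tested in at least 1 comparison, in CPM per kilobase of exons on a log axis, with points for group means and lines from the lowest to the highest library of a group (lines that reach the bottom edge include a library at 0). Efna5 and Efna1 lead in every group, and Efnb3, Epha3 and, in females, Epha4 are the genes whose control and PE−/− groups stand apart the most.

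Efnb3 was the member with the clearest difference. It encodes ephrin-B3, a largely neuronal ligand that is best known as a barrier to corticospinal axons at the midline of the spinal cord, where it acts on EPHA4. In the files it is MSTRG.3888, and GENCODE M21 places the gene on chromosome 11 from 69554092 to 69560205 (minus strand, mm10). In males the controls stood at 4.01, 2.64, 1.46 and 2.46 CPM, and the PE−/− glands at 14.7, 18.8, 16.9 and 14.4 CPM. The female controls had 1.95, 2.18, 1.96 and 3.66 CPM, and the PE−/− females 17.9, 22.9 and 23.2 CPM. Every PE−/− library was thus well above every control of its sex, and the 2 control groups lay in the same range.

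The male means of Efnb3 were 2.64 ± 1.05 CPM in controls and 16.2 ± 2.05 CPM in PE−/− glands (SD, n = 4 each), a fitted difference of 2.62 on the log2 scale (SE 0.29, edgeR adjusted p = 0.0154) or 6.13-fold. The female means were 2.44 ± 0.822 CPM (n = 4) and 21.3 ± 2.97 CPM (n = 3), and differed by 3.12 on the log2 scale (SE 0.27, edgeR adjusted p = 0.00698) or 8.70-fold. The call in males was close to the threshold: it was lost (adjusted p = 0.0550 to 0.0855) without PE+/− male replicate 2 or 4, or PE−/− male replicate 1, 2 or 3, with log2 fold changes of 2.42 to 2.88 over all 8 such fits. The difference was not shown to depend on sex (interaction log2 fold change 0.51, SE 0.40, edgeR adjusted p = 0.753), although among the PE−/− mice the female mean was 1.32 times the male one (log2 fold change 0.40, edgeR unadjusted p = 0.0401, adjusted p = 0.997).

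As a share of the ephrin-B pool, Efnb3 was also higher in PE−/− glands, which restates its own difference because the same values were used. Efnb3 took 6.15 ± 2.97% of the summed ephrin-B level per length in PE+/− males and 28.2 ± 3.63% in PE−/− males (SD, n = 4 each). In females it took 8.81 ± 3.06% (n = 4) and 31.1 ± 4.88% (n = 3). The 3 ligands together came to 14.5 ± 4.88 and 18.2 ± 1.97 CPM per kb in males and 9.27 ± 3.19 and 21.6 ± 0.437 CPM per kb in females. Efnb1 remained the largest part of the pool in the group means, with 52.3% to 67.9%.

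Epha3 was the receptor with the clearest difference. EPHA3 prefers ephrin-A ligands, with high affinity for ephrin-A5, the most abundant family member here. The gene (MSTRG.9866) lies on chromosome 16 from 63543534 to 63864175 (minus strand, mm10). Control males had 5.07, 5.84, 6.46 and 2.84 CPM and PE−/− males 17.99, 18.3, 13.5 and 13.9 CPM. Control females had 3.75, 4.64, 2.67 and 3.48 CPM and the PE−/− females 19.9, 22.7 and 19.8 CPM. The genotypes did not overlap in either sex, and among the PE−/− libraries all 3 of females lay above all 4 of males.

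In females Epha3 averaged 3.63 ± 0.816 CPM (SD, n = 4) in controls and 20.8 ± 1.65 CPM (n = 3) in PE−/− glands, a fitted difference of 2.51 on the log2 scale (SE 0.21, edgeR adjusted p = 0.00698) or 5.68-fold, which passed the threshold without any 1 female library. In males it averaged 5.05 ± 1.58 CPM and 15.9 ± 2.55 CPM (n = 4 each), and the difference of 1.65 on the log2 scale (SE 0.26) did not pass in edgeR (unadjusted p = 0.000186, adjusted p = 0.0923) but did in DESeq2 (adjusted p = 2.71e-06). The interaction was 0.86 (SE 0.34, edgeR adjusted p = 0.407), so the larger value in females was not shown to differ from that in males. Of the summed EphA receptor level per length, Epha3 took 8.59 ± 2.55% in PE+/− and 23.8 ± 2.07% in PE−/− males, and 7.27 ± 1.19% and 29.6 ± 1.17% in the females (SD, n = 4, 4, 4 and 3). These shares come from the same values and restate the difference of Epha3.

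**Figure D2:**
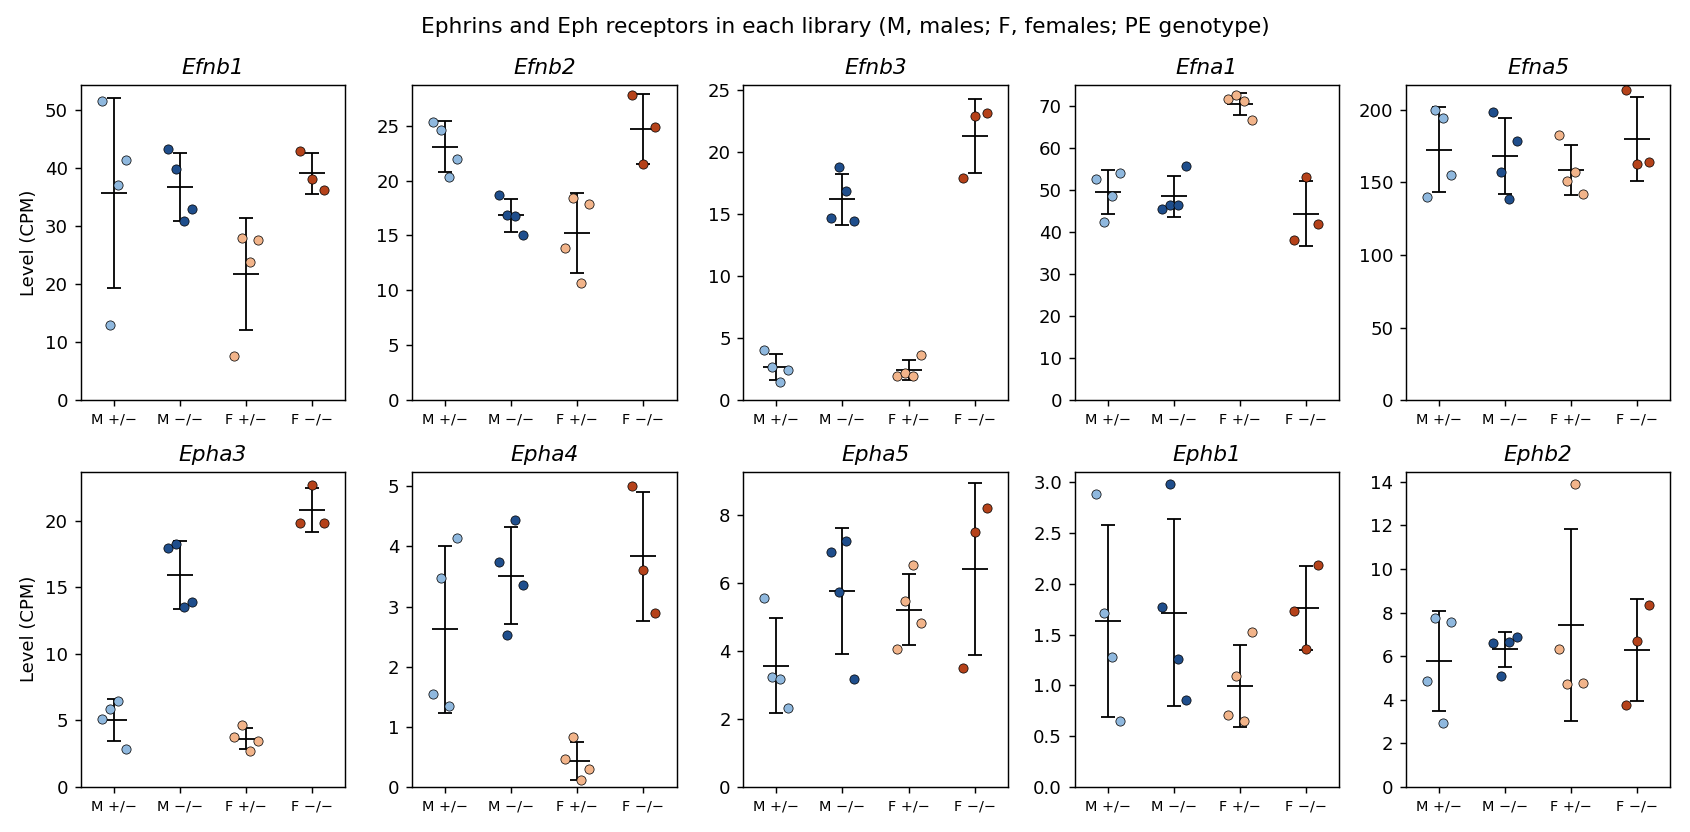
Level of each of the 10 genes in CPM (y axes from 0, scaled per gene) in PE+/− and PE−/− males and females, with 1 point per library and bars for the mean ± SD (n = 4, 4, 4 and 3). Efnb3 and Epha3 are higher in every PE−/− library of both sexes, Epha4 is near 0 in the PE+/− females alone, and Efna1 is high in the same group.

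The promoter of Epha3 is shown as the only RefSeq entry among the members past the threshold, since Efnb3 had none in the table used. It is the 250 bases before the RefSeq start of the gene, at chr16:63864176-63864425 (GRCm38.p6, minus strand), 62.8% G or C with 16 CpG sites, and no capitals appear because none of the motifs searched was found.
Epha3: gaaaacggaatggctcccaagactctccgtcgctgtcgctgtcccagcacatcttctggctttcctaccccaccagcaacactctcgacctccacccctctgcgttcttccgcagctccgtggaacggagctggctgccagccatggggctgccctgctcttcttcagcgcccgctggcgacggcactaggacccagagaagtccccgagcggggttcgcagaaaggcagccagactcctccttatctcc
The motifs were 2 forms of the site of the receptor that Nr5a1 encodes, CAAGGTCA and CAAGGCCA, and the oestrogen response element, searched as exact letters on both strands in windows of 300 bases (250 before to 50 after the start). Of the 10 members 9 had an entry, with 10 windows in all. CAAGGTCA was in 0 of them, against 1.56% of 32851 promoters, and the oestrogen response element in 0, against 0.07%. CAAGGCCA was in 1 (Efnb1), against 2.40% of all promoters, on the minus strand at bases 12 to 19 after the start, and is given here in capitals with 10 bases on either side (chrX:99136062-99136089, GRCm38.p6, plus strand).
Efnb1: ggagcagggtTGGCCTTGtgctcgcctg
This match lies after the RefSeq start, so that 0 members held it in the 250 bases before that start. GENCODE M21 starts Efnb1 further on, at chrX:99136130, so the match lies before the GENCODE start. A match is only a run of letters, and binding was not measured here.

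Epha4 had a different pattern, set by 1 group. EPHA4 binds ligands of both classes, ephrin-B3 among them. In the PE+/− females it had 6, 20, 2 and 5 counts, at or under the floor in 3 of 4 libraries, which is 0.469, 0.837, 0.109 and 0.305 CPM. The PE−/− females had 81, 117 and 66 counts (5.0, 3.62 and 2.89 CPM). The male controls had 1.55, 3.48, 1.34 and 4.13 CPM, and the PE−/− males 3.74, 2.53, 4.45 and 3.36 CPM. The control females were below all other 11 libraries, and of the PE−/− females 2 lay in the range of the males and 1 above it.

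The log2 fold change of Epha4 between genotypes was 3.10 (SE 0.59) in females, with an edgeR adjusted p of 0.0658, and 0.42 (SE 0.40, adjusted p = 0.972) in males. Between the sexes it was −2.56 (SE 0.65, edgeR adjusted p = 0.136) in PE+/− and 0.12 (SE 0.28, adjusted p = 0.997) in PE−/− mice, females over males. The interaction was 2.69 (SE 0.71, edgeR adjusted p = 0.174). None of these passed the threshold in the main test, and those that involve the control females rest on few counts. DESeq2 passed 3 of the 5 comparisons, with adjusted p of 7.46e-05 for the genotype in females, 0.00560 for the sexes in PE+/− mice and 0.0171 for the interaction.

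Efna1 moved the other way in the same group. Ephrin-A1 is a ligand of EPHA2 that was first found as a gene induced by inflammatory signals in blood vessel cells. The PE+/− females had 71.6, 72.7, 71.3 and 66.7 CPM, above all other libraries. The PE−/− females had 38.1, 53.1 and 42.0 CPM. The male controls had 52.7, 42.4, 48.6 and 54.1 CPM, and the PE−/− males 45.5, 46.4, 46.5 and 55.8 CPM. Of the PE−/− females 1 thus lay in the range of the males and 2 below it.

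The log2 fold change of Efna1 was −0.675 (SE 0.15, edgeR adjusted p = 0.0930) in females, to 62.9% of the control mean, and −0.03 (SE 0.13, adjusted p = 0.992) in males. Among controls it was 0.52 higher in females than in males (SE 0.12, edgeR adjusted p = 0.123), and the interaction was −0.64 (SE 0.19, edgeR adjusted p = 0.232). DESeq2 passed the threshold in females (adjusted p = 0.00262) and between the sexes in PE+/− mice (adjusted p = 0.00347). Across the ephrin-A pool, Efna1 took 49.1 ± 2.32% of the level per length in PE+/− females (n = 4), against 38.2 ± 5.97% in PE+/− males, 38.4 ± 3.71% in PE−/− males (n = 4 each) and 34.8 ± 6.49% in PE−/− females (SD, n = 3). These shares use the same values of Efna1 and are not a separate result.

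Efnb2 was the 1 member whose genotype difference had opposite signs in the sexes with no overlap in either. Ephrin-B2 is the arterial ligand of EPHB4 and has been described in the stem cell layer of the pituitary. Control males had 25.4, 24.6, 20.4 and 21.96 CPM and PE−/− males 18.7, 16.9, 16.8 and 15.01 CPM, every one of them lower. Control females had 13.9, 18.5, 10.7 and 17.9 CPM and PE−/− females 27.8, 21.5 and 24.9 CPM, every one of them higher. The level of the PE−/− females was thereby close to that of the control males, and that of the PE−/− males close to that of the control females.

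The log2 fold change of Efnb2 was −0.46 (SE 0.13, edgeR unadjusted p = 0.00728, adjusted p = 0.469) in males and 0.69 (SE 0.22, unadjusted p = 0.0161, adjusted p = 0.184) in females. The interaction was 1.15 (SE 0.25, edgeR unadjusted p = 0.000405), the smallest p of a member in that comparison, and did not pass after adjustment (edgeR adjusted p = 0.0909). It passed in DESeq2 (adjusted p = 0.00220) and in the likelihood ratio test of edgeR (adjusted p = 0.0310). The sexes differed by −0.60 (SE 0.20, adjusted p = 0.238) in PE+/− and 0.56 (SE 0.14, adjusted p = 0.997) in PE−/− mice, females over males, with no overlap in either genotype.

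The remaining ligands did not differ past the threshold. Efnb1, an X-linked ephrin whose human gene is mutated in craniofrontonasal syndrome, had 51.6, 12.9, 37.0 and 41.3 CPM in male controls, which span the 30.9 to 43.3 CPM of the PE−/− males. The female controls had 7.57, 27.9, 23.8 and 27.5 CPM and the PE−/− females 43.0, 38.1 and 36.1 CPM, without overlap (log2 fold change 0.84, SE 0.40, edgeR adjusted p = 0.366). The values of 12.9 and 7.57 CPM are single control libraries far below the others of their group, and without them the log2 fold change was −0.24 in males and 0.56 in females. Efna5, the ephrin that maps retinal axons onto their target and the most abundant member, ranged from 138 to 213 CPM over all libraries, with log2 fold changes of −0.04 (SE 0.16) in males and 0.18 (SE 0.16) in females.

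The remaining receptors were low and varied between libraries. Epha5, a receptor of ephrin-A5, had 2.33 to 5.56 CPM in PE+/− and 3.18 to 7.26 CPM in PE−/− males (log2 fold change 0.69, SE 0.35, edgeR adjusted p = 0.878), and 4.06 to 6.53 and 3.52 to 8.23 CPM in the females (0.29, SE 0.33). Ephb1, an ephrin-B receptor, was near the floor with 0.646 to 2.98 CPM over all libraries, and 3 control libraries held 12 counts or fewer. Its log2 fold change was 0.81 (SE 0.43, edgeR adjusted p = 0.414) in females and 0.08 (SE 0.53) in males. Ephb2, a receptor that also acts at synapses, had 2.93 to 7.74 and 5.09 to 6.88 CPM in PE+/− and PE−/− males and 4.73 to 13.9 and 3.77 to 8.36 CPM in the females. Its highest value was PE+/− female replicate 3, and the log2 fold change in females of −0.25 (SE 0.47) became 0.24 without it and 0.02 without PE−/− female replicate 1.

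**Figure D3:**
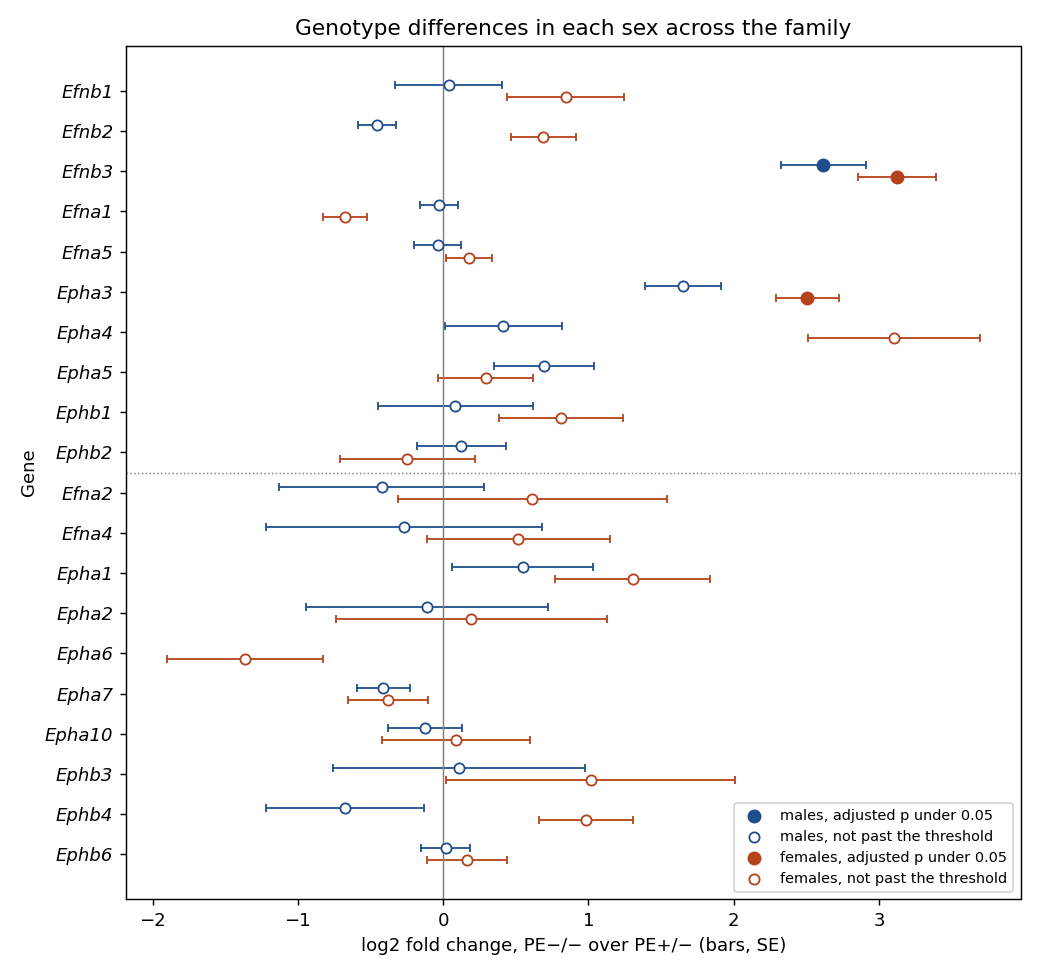
Log2 fold change of PE−/− over PE+/− in males (blue) and females (red) with SE bars for the 10 members (above the dotted line) and the 10 other tested family genes, filled where the edgeR adjusted p was under 0.05. Efnb3 is filled in both sexes and Epha3 in females, and Efnb2 lies at −0.46 in males and 0.69 in females.

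Counted over the 10 members, all of which passed the low-count filter, 1 (Efnb3) was past the threshold in males and 2 (Efnb3 and Epha3) in females, all higher in PE−/− mice. Of all genes tested, 0.132% passed in males (0.046% higher in PE−/−) and 1.05% in females (0.348% higher in PE−/−). At an unadjusted p under 0.05 there were 3 members in males (6.14% of all genes) and 5 in females (16.1%). DESeq2 passed 2 members in males (1.18% of all genes) and 4 in females (7.91%). Groups of libraries did not overlap for 3 members in males (4.55% of all genes) and 6 in females (18.6%). The median log2 fold change of the members was 0.10 in males and 0.75 in females, beside 0.003 and 0.002 over all genes tested. Because the members were chosen with these contrasts in view, nothing is read from how far they stand from the background.

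Between the sexes, edgeR passed 0 members in PE+/− mice (0.67% of all genes) and 0 in PE−/− mice (0.0494%), and 0 in the interaction (0.161%). At an unadjusted p under 0.05 there were 3 (Efna1, Efnb2 and Epha4) in PE+/− mice (13.5% of all genes), 3 (Efnb2, Efnb3 and Epha3) in PE−/− mice (3.37%) and 4 (Efna1, Efnb2, Epha3 and Epha4) in the interaction (10.1%). DESeq2 passed 2 in PE+/− mice (5.24%), 0 in PE−/− mice (0.225%) and 2 in the interaction (2.04%). Groups did not overlap for 3 members in PE+/− mice (9.76%) and 2 in PE−/− mice (5.24%). The comparisons share groups, so their values for 1 gene are not independent of each other.

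None of the other 12 family genes passed in any comparison, in edgeR or in DESeq2. Efna3 and Epha8 were at the floor in every library and were not tested, and Epha6 was tested in every comparison but that of the males. At an unadjusted p under 0.05 in females there were 3 of 10 (16.1% of all genes), named here after their values were seen: Ephb4, the receptor of ephrin-B2 on veins (2.62 ± 0.665 and 5.21 ± 1.62 CPM, log2 fold change 0.98, edgeR adjusted p = 0.192), Epha1 (1.18 ± 0.644 and 2.95 ± 1.39 CPM, 1.30, adjusted p = 0.290) and Epha6 (2.25 ± 1.34 and 0.872 ± 0.0617 CPM, −1.37, adjusted p = 0.270), with n = 4 and 3. In males there were 0 of 9 (6.14% of all genes). The median log2 fold change of the tested ones was −0.12 in males (9 genes) and 0.36 in females (10 genes).

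Downstream of the receptors, 41 genes were followed that carry the signal to the cytoskeleton: adaptors, nucleotide exchange factors, Src and Abl family kinases, PDZ proteins of the ephrin-B tail and the sheddase Adam10. All 41 were tested and 0 passed in any of the 5 comparisons. At an unadjusted p under 0.05 there were 4 in males (6.14% of all genes), 7 in females (16.1%), 5 between the sexes in PE+/− mice (13.5%), 2 in PE−/− mice (3.37%) and 2 in the interaction (10.1%). DESeq2 passed 1 in males (Sipa1l1, 1.18% of all genes), 2 in females (Grip2 and Pak1, 7.91%), 2 between the sexes in PE+/− mice (Acp1 and Rasa1, 5.24%), 0 in PE−/− mice (0.225%) and 0 in the interaction (2.04%). The median log2 fold change was −0.05 in males and 0.05 in females.

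The 3 signalling genes with the smallest adjusted p in females were Pak1, a kinase of the actin cytoskeleton (log2 fold change −0.99, SE 0.23, edgeR adjusted p = 0.0932), Grip2, a PDZ protein that binds ephrin-B tails (1.14, SE 0.32, adjusted p = 0.140), and the Rac exchange factor Tiam1 (−0.51, SE 0.18, adjusted p = 0.233). In males they were Sipa1l1 (−0.49, SE 0.11, edgeR adjusted p = 0.289), Rac1 (−1.74, SE 0.56, adjusted p = 0.598) and Pak1 (−0.57, SE 0.21, adjusted p = 0.686). In the interaction they were the kinase Src (0.67, edgeR adjusted p = 0.244), Rasa1 (−0.80, adjusted p = 0.445) and Grip2 (0.98, adjusted p = 0.519). Between the sexes in PE+/− mice they were Rasa1 (0.69, SE 0.19, edgeR adjusted p = 0.171), Src (−0.57, SE 0.17, adjusted p = 0.196) and the phosphatase Acp1 (3.45, SE 1.06, adjusted p = 0.207). In PE−/− mice all 41 had an adjusted p of at least 0.997, with the smallest unadjusted p for Ptpn13 (−0.59), Abl2 (0.36) and Arhgef15 (0.36).

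The genes most like Efnb3 were found by the root mean square difference of log2 CPM, each gene centred on its own mean, over the 15 libraries and 16067 genes. They were Nell1 (0.472), Psd2 (0.482), Epha3 (0.622), Cdkn1c (0.625) and Ces1d (0.657), against a median of 1.51 over all genes. Nell1, a secreted protein of bone growth, had means of 13.5 ± 5.42 and 46.7 ± 12.03 CPM in male controls and mutants, and of 9.42 ± 1.48 and 50.5 ± 4.29 CPM in the female ones. Cdkn1c, an inhibitor of the cell cycle, had 6.44 ± 4.96 and 25.8 ± 8.09 CPM in the male groups, and 3.91 ± 1.43 and 27.4 ± 6.70 CPM in the female groups. Epha3 was thus the third closest of the 16067 genes to Efnb3, at levels of the same order. Both members were chosen with their differences in these libraries known, and the measure favours genes with differences of like size. Nothing is therefore read from this rank.

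The genes most like Epha3 were Slc17a8 (0.277), Ces1d (0.423), Trpc5 (0.445), Scgn (0.479) and Cntn1 (0.520), against a median of 1.16. Slc17a8, the vesicular glutamate transporter VGLUT3, had means of 7.77 ± 2.18 and 20.8 ± 4.41 CPM in male controls and mutants, and of 4.78 ± 1.39 and 23.5 ± 4.30 CPM in the female ones (SD, n = 4, 4, 4 and 3, as for the genes before). Scgn, a calcium-binding protein of endocrine cells, had 7.11 ± 2.20 and 16.6 ± 5.01 CPM in the male groups, and 4.49 ± 2.04 and 17.9 ± 0.883 CPM in the female groups. Ces1d, a carboxylesterase, was on both lists.

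**Figure D4:**
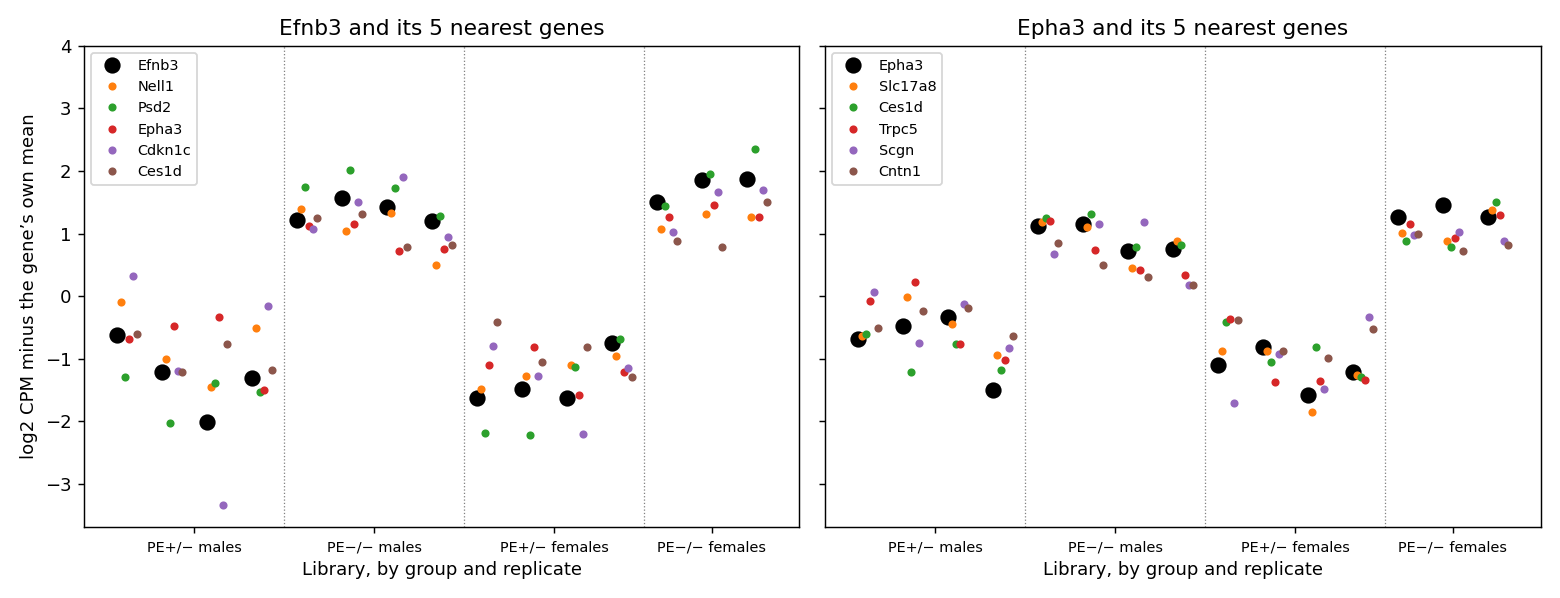
Log2 CPM of Efnb3 (left) and Epha3 (right) and of the 5 genes nearest to each, minus each gene's own mean, in the 15 libraries ordered by group and replicate. All genes shown are above their mean in each PE−/− library and mostly below it in the controls.

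Of the lists of cell type markers, only the gonadotrope, lactotrope and pericyte or fibroblast lists held a gene past the edgeR threshold in a genotype comparison. Since 1 abundant gene makes up most of some summed levels, the lists are given by their genes, as group means with n = 4, 4, 4 and 3. Over all genes tested, 15 of 17392 passed as lower in PE−/− males and 126 of 18085 in PE−/− females. Of 8 gonadotrope markers, 4 passed as lower in PE−/− males and 5 in PE−/− females, and all 8 had negative log2 fold changes in both sexes (medians −4.89 and −3.51). Their summed level was 9575 to 16940 CPM in male controls against 1390 to 6831 CPM in PE−/− males, and 6004 to 8908 and 2294 to 6962 CPM in the females. Most of it was Cga, the hormone subunit that thyrotropes share (8467 and 5216 CPM in males), whereas Lhb went from 425 to 13.02 CPM and Fshb, which did not pass, from 2703 to 72.4 CPM in males. Nr0b1 was at the floor in 6 of the 7 PE−/− libraries. The study had listed Tgfbr3l, Spp1 and Nr0b1 among genes lower in PE−/− glands, and its quantitative PCR had Lhb, Fshb and Gnrhr reduced. The direction of these markers was thus known beforehand.

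Of 4 lactotrope markers, 1 (Prl) was lower in PE−/− females (30090 and 5079 CPM) and 0 passed in males. The other three did not go one way in females, with Angpt1 at 247 and 116 CPM, Drd2 at 27.7 and 32.3 CPM and Agtr1a at 35.0 and 55.8 CPM. Of 6 pericyte or fibroblast markers 1 (Col1a2, 165 and 42.8 CPM) was lower in PE−/− females and 0 passed in males. Rgs5 had 679 and 295 CPM in females and 482 and 277 CPM in males, while Dcn (90.5 and 93.2 CPM) and Pdgfrb (22.5 and 21.1 CPM) differed little between the female means and Col1a1 was at 11.4 and 14.1 CPM.

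In the other lists 0 markers passed in either sex in edgeR. DESeq2 passed 3 stem or folliculostellate markers and 1 posterior lobe marker in females (7.91% of all genes). In males it passed 1 stem or folliculostellate marker (1.18% of all genes). All 4 melanotrope markers had positive log2 fold changes in males (median 0.72) and females (median 0.47). Their summed levels overlapped between the genotypes, at 256.8 to 833.7 and 608.4 to 1397 CPM in males and 365.5 to 681.4 and 599.5 to 790.5 CPM in females. All 3 erythroid markers had negative log2 fold changes (medians −0.89 and −0.85), with summed levels of 424 to 1018 and 163 to 720 CPM in males and 469 to 1023 and 283 to 670 CPM in females. Of the 6 stem or folliculostellate markers 5 were positive and 1 negative in each sex (medians 0.29 in males and 0.57 in females). Of the 6 endothelial markers 6 were negative in males (median −0.46) and 5 in females (median −0.35).

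The 4 somatotrope markers were all positive in females (median 0.71), and in males 1 was positive and 3 negative (median −0.09). Gh, which makes up nearly all of their sum, went from 162300 to 106800 CPM in males and from 78560 to 121600 CPM in females. The medians of the 4 corticotrope, 4 thyrotrope and 6 immune markers were 0.32, −0.19 and 0.006 in males and 0.38, 0.23 and −0.34 in females. Of the corticotrope markers 3 were positive in males and 4 in females. The part of any of these cell types in the differences of Efnb3, Epha3, Efnb2 or the other members was not tested.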

How the data were processed

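The deposited table held whole-number estimated counts per gene for 15 whole-pituitary libraries, which the authors had not normalized. Per the study's methods, paired reads were trimmed with cutadapt, mapped to mm10 with STAR and counted with featureCounts. The row names and the spacing of low values (5, 9 and 13 were 1.52, 1.16 and 1.08 times as frequent as their neighbours) were those of coverage-based counts of assembled loci, a step the methods do not state. All 15 columns were matched to samples by name, with 0 left over.

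Groups were compared in R 4.3.3 with edgeR 4.0.16 on the counts as deposited (filterByExpr, minimum count 10 and minimum total 15, TMM factors, two-sided quasi-likelihood F test) within the groups compared, with Benjamini-Hochberg adjustment over all genes tested and a threshold of 0.05. The comparisons were genotype in each sex, sex in each genotype and their interaction. The SE is the log2 fold change divided by the square root of F, and the prior count of log2 CPM was 2. No pair of replicates was alike within counting error (chi-square over its degrees of freedom of 17.9 or more after division by 4). Floors cover counting error only. Replicate numbers are shared between groups, but the labels do not say what a number marks, so they were not used as a block in the main test. Whether same-numbered libraries belong together was not settled.

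The members, the gene lists and the comparisons were chosen with earlier results of these data known. The genes named were the 10 members, family genes past the threshold or at the floor (others were named after their values were seen, as said there), the 3 signalling genes with the smallest adjusted p of a comparison, and for members past the threshold the 5 nearest genes with a mean of at least 1 CPM. Exon lengths and coordinates came from GENCODE M21, promoters from RefSeq (GRCm38.p6). Alternatives were DESeq2 1.42.0, DESeq2 size factors, library totals, no filter or one of 1 CPM, the likelihood ratio test, counts divided by 4, one fit on all libraries, rows summed per locus, a block for the replicate number and the omission of each library in turn. Protein sequences were not analysed here. The code was tested on simulated data with known changes.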

Additional observations from a re-analysis of the deposited data

Results flagged for a closer look

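In 63 groups of 4 libraries of the family genes, 7 had 1 library far from the others, and chance alone flags about 1 group in 20. Among the members these were Efnb3 in PE+/− female replicate 4 (3.66 CPM, others 1.95 to 2.18), still far under the PE−/− females, Efna1 in PE−/− male replicate 4 (55.8 CPM, others 45.5 to 46.5) and Ephb2 in PE−/− male replicate 2 (5.09 CPM, others 6.62 to 6.88). Among the other family genes, Epha10 was at 2.94 CPM in PE+/− female replicate 3 against 14.8 to 15.4 CPM in the rest of its group. The other three were low genes: Efna2 in PE+/− male replicate 1 (3.59 CPM, others 0.366 to 0.840), Epha6 in PE−/− male replicate 4 (1.54 CPM, others 0.0765 to 0.303) and Epha8 in PE+/− female replicate 3 (0.489 CPM, under the floor, others 0).

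Efnb2 was lower in every PE−/− male and higher in every PE−/− female than in the controls of that sex (difference between the sexes of 1.15 on the log2 scale). The test of this difference missed the threshold in edgeR (adjusted p = 0.0909) and passed it in DESeq2 (adjusted p = 0.00220).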

How the results depend on the processing

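The count of members past the threshold depended on the test. In males it was 1 and became 2 with DESeq2, the likelihood ratio test or one fit on all libraries (each time with Epha3) and 0 with the replicate block, and ranged from 0 to 1 when single libraries were left out. In females it was 2 and became 4 with DESeq2 (Efna1 and Epha4 added), 5 with one fit on all libraries (also Efnb2) and 0 with the replicate block, and stayed at 2 without any 1 library. The likelihood ratio test and counts divided by 4 each passed 3. Between the sexes in PE+/− mice the 0 became 2 with DESeq2 (Efna1 and Epha4), which passed 5.24% of all genes. It became 1 (Epha4) with the likelihood ratio test (2.46% of all genes) or one fit (2.18%). In the interaction the 0 became 2 (Efnb2 and Epha4) with DESeq2 (2.04% of all genes) or the likelihood ratio test (1.05%). These settings also moved the whole table. In females 189 genes passed in the main test (1.05% of those tested), 1431 with DESeq2 (7.91%) and 710 with the likelihood ratio test (3.93%). One fit passed 714 (3.7%) and the block 1 (0.00553%). In males the counts in the same order were 23 (0.132%), 206 (1.18%), 138 (0.793%), 37 (0.192%) and 0.

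The values did not settle whether the replicate numbers pair the libraries, and the labels do not say what a number marks. Correlations of same-numbered libraries ran from −0.081 to 0.132, and those of other libraries between groups from −0.125 to 0.165. Between the genotypes 0 of 4 control males correlated best with the PE−/− library of their own number. Of the control females 2 of 4 did, and replicate 4 had no such library. Replicate 2 had the largest total in each group (22411476 to 30238443 counts). With the replicate block, Efnb3 had log2 fold changes of 2.68 (edgeR adjusted p = 0.248) in males and 3.38 (adjusted p = 0.186) in females, and Epha3 2.51 (adjusted p = 0.207) in females.

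Directions of the small differences were not stable. With library totals only, the log2 fold changes in males became 0.05 for Efna1 and 0.044 for Efna5, while the median of all genes moved to 0.08. Without single libraries the sign turned in males for Efna5 (range −0.128 to 0.046), Efna1 (−0.102 to 0.015), Ephb2 (−0.094 to 0.300), Ephb1 (−0.33 to 0.50) and Efnb1 (−0.24 to 0.27), and in females for Ephb2 (−0.50 to 0.24). Over all alternatives and omissions Efnb3 kept 2.42 to 2.88 in males and 3.03 to 3.38 in females, and Epha3 1.46 to 1.79 and 2.38 to 2.65. The match of CAAGGCCA in 1 member became 0 in the 250 bases before the RefSeq start. At this depth, values of Epha4 in control females and of Ephb1 rest on few fragments.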
